A study of Mus musculus with 8 samples.

Results

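The nuclear genes for subunits of respiratory chain complexes I, III and IV and of complex V, the ATP synthase, were followed in primary sternal chondrocytes, the cartilage-forming cells of the breastbone, of C57BL/6 mouse embryos at embryonic day 18.5. The genes were taken as the coding rows whose symbols begin with Nduf and a subunit letter and number, Uqcr, Cox4 to Cox8, or Atp5. This gave 76 genes of the 16432 listed, of which 14711 are coding, and 0 noncoding rows matched. By role, 35 belong to complex I (7 core and 28 accessory subunits), 2 to the NDUFA4 family, 8 to complex III, 15 to complex IV and 16 to complex V. The genotypes were compared by stranded mRNA sequencing: Col2a1Cre;Idh1 fl/+ (called Cre-Idh1 here, n = 3 libraries), Col2a1Cre (Cre control, n = 3) and Idh1 fl/+ without Cre (floxed control, n = 2). The series title says that the chondrocytes express mutant Idh1, the gene of the cytosolic isocitrate dehydrogenase. Cre is driven by Col2a1, the type II collagen gene of cartilage, and the floxed allele is heterozygous per the sample labels, while the design text writes fl/fl. Cre-Idh1 and Cre control cells share the Cre transgene, and Cre-Idh1 and floxed control cells share the floxed allele. The labels do not say that libraries came from separate embryos, so p-values measure the spread between these libraries.

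As background, complex I takes electrons from NADH, complex III passes them from ubiquinol to cytochrome c, complex IV hands them to oxygen, and complex V makes ATP from the proton gradient that results. Most subunits have a single gene, but several subunits of complex IV and the related NDUFA4 subunit have an alternative isoform that is known from particular tissues or from low oxygen. Cartilage has no blood vessels, and chondrocytes are known to rely heavily on glycolysis. Mutant IDH1 enzymes are known to make D-2-hydroxyglutarate, a compound that can inhibit enzymes that use alpha-ketoglutarate.

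The libraries held 31860422 to 44988540 reads, and the respiratory chain genes took 0.327% to 0.390% of them in each library. Col2a1, the defining chondrocyte marker, took 15.9% to 21.3% of all reads. Idh1 itself averaged 3654 ± 258 normalized counts in the Cre-Idh1 libraries (SD, n = 3), against 3754 ± 205 in Cre control cells (SD, n = 3) and 2357 ± 133 in floxed control cells (SD, n = 2), and gene counts do not show which allele was read. A normalized count is the number of reads of a gene divided by the authors' size factor of the library.

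One library stood apart for these genes before any comparison was made. In Cre-Idh1 replicate 3 the median subunit gene lay 0.24 above its mean over the 8 libraries on the log2 scale, against -0.05 and -0.08 in Cre-Idh1 replicates 1 and 2. The medians of the Cre control libraries were -0.12, 0.01 and 0.05, and those of the floxed control libraries -0.01 and -0.06. All 4 complexes were high in that library, with medians of 0.27 for complex I, 0.26 for complex III, 0.32 for complex IV and 0.17 for complex V, while the median over all genes tested was 0.00. Set against the other Cre-Idh1 libraries, replicate 3 was higher for 65 of 74 subunit genes, with a median log2 difference of 0.33. The difference was greatest for short transcripts: its median was 0.44 for the 32 genes under 700 bases, 0.29 for the 29 genes of 700 to 1500 bases and 0.16 for the 13 longer ones. Over 13648 coding genes the same 3 length classes gave 0.32, 0.22 and -0.06. The part of transcript length in the results that follow was not tested, and calls and medians by complex are given with and without replicate 3, as are several of the genes described.

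**Figure D1:**
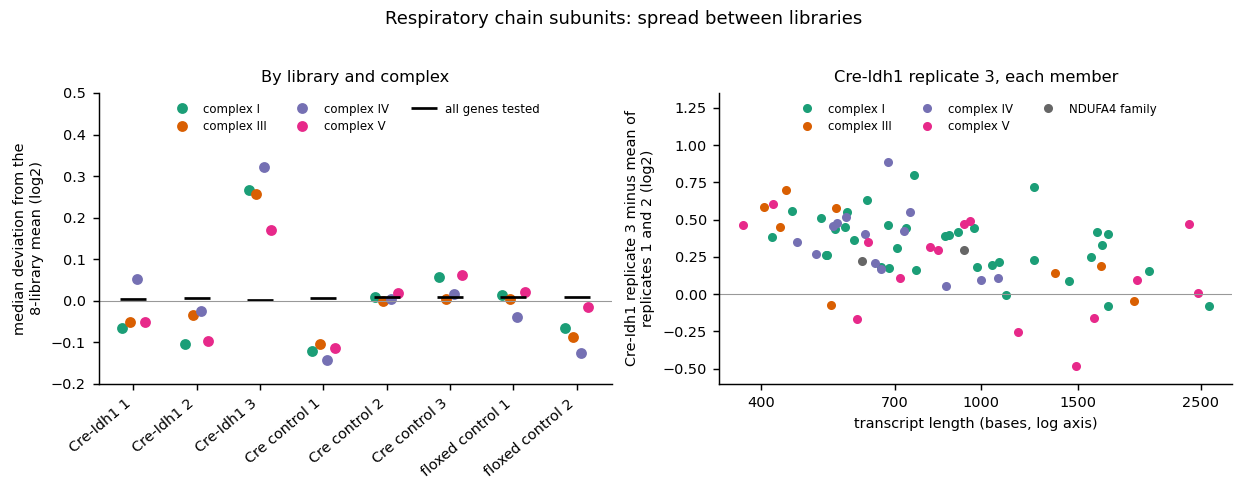
Left, the median log2 deviation of each complex from the 8-library mean (y axis) in each library (x axis), with a black bar for all genes tested. Right, for each subunit gene, the log2 difference of Cre-Idh1 replicate 3 from the mean of replicates 1 and 2 (y axis) by transcript length in bases (log x axis). All 4 complexes sit at 0.17 or above in Cre-Idh1 replicate 3, and the points on the right fall with length.

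Most respiratory chain subunits differed little between Cre-Idh1 cells and either control. Against Cre control cells 74 of the 76 genes passed the filter on low values (a normalized count of at least 10 in at least 3 libraries). Of these 3 rose (Cox6a2, Cox7a2l and Ndufa7) and 3 fell (Cox4i2, Cox6b2 and Ndufs1) at an adjusted p under 0.05. Those 6 are 8.11% of the subunit genes tested, where 19.2% of all 14851 genes tested passed, 9.8% higher and 9.39% lower. The median log2 fold change of the subunits was 0.04, against -0.01 over all genes, and 59 subunits (79.7%) lay within 0.25 of 0, against 48.9% of all genes. Among the 11199 genes with a mean of at least 100 reads, 72 of them subunits, 56.6% lay within 0.25 of 0. The Cre-Idh1 and Cre control libraries did not overlap for 14 subunits (18.9%), 8 higher and 6 lower, against 41.0% of all genes. An unadjusted p under 0.05 was reached by 13 of the 74, and by 5074 of all 14851 genes tested. Without Cre-Idh1 replicate 3 the median was -0.05 and 8 subunits passed, the same 6 with Ndufv3 and Ndufc2 lower.

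Against floxed control cells the picture was much the same, in a comparison that uses the same 3 Cre-Idh1 libraries. Of 75 subunit genes tested, Cox7a2l rose and Cox4i2 and Ndufa4l2 fell. These 3 are 4% of the subunits, where 14.4% of 15212 genes passed, 7.47% higher and 6.96% lower. The median log2 fold change was 0.07, against 0.00 over all genes, and 56 subunits (74.7%) lay within 0.25 of 0, against 43.3% of all genes. Among genes with a mean of at least 100 reads that share was 50.9%. The libraries did not overlap for 29 subunits (38.7%), 18 higher and 11 lower, against 53.4% of all genes. An unadjusted p under 0.05 was reached by 9 of the 75, and by 4831 of all 15212 genes tested. Without Cre-Idh1 replicate 3 the median was -0.04 and 6 subunits passed, the same 3 with Ndufa7 higher and Ndufv3 and Ndufs1 lower. Without floxed control replicate 2 only Cox4i2 passed. Cox4i2 and Cox7a2l were thus called against both controls.

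**Figure D2:**
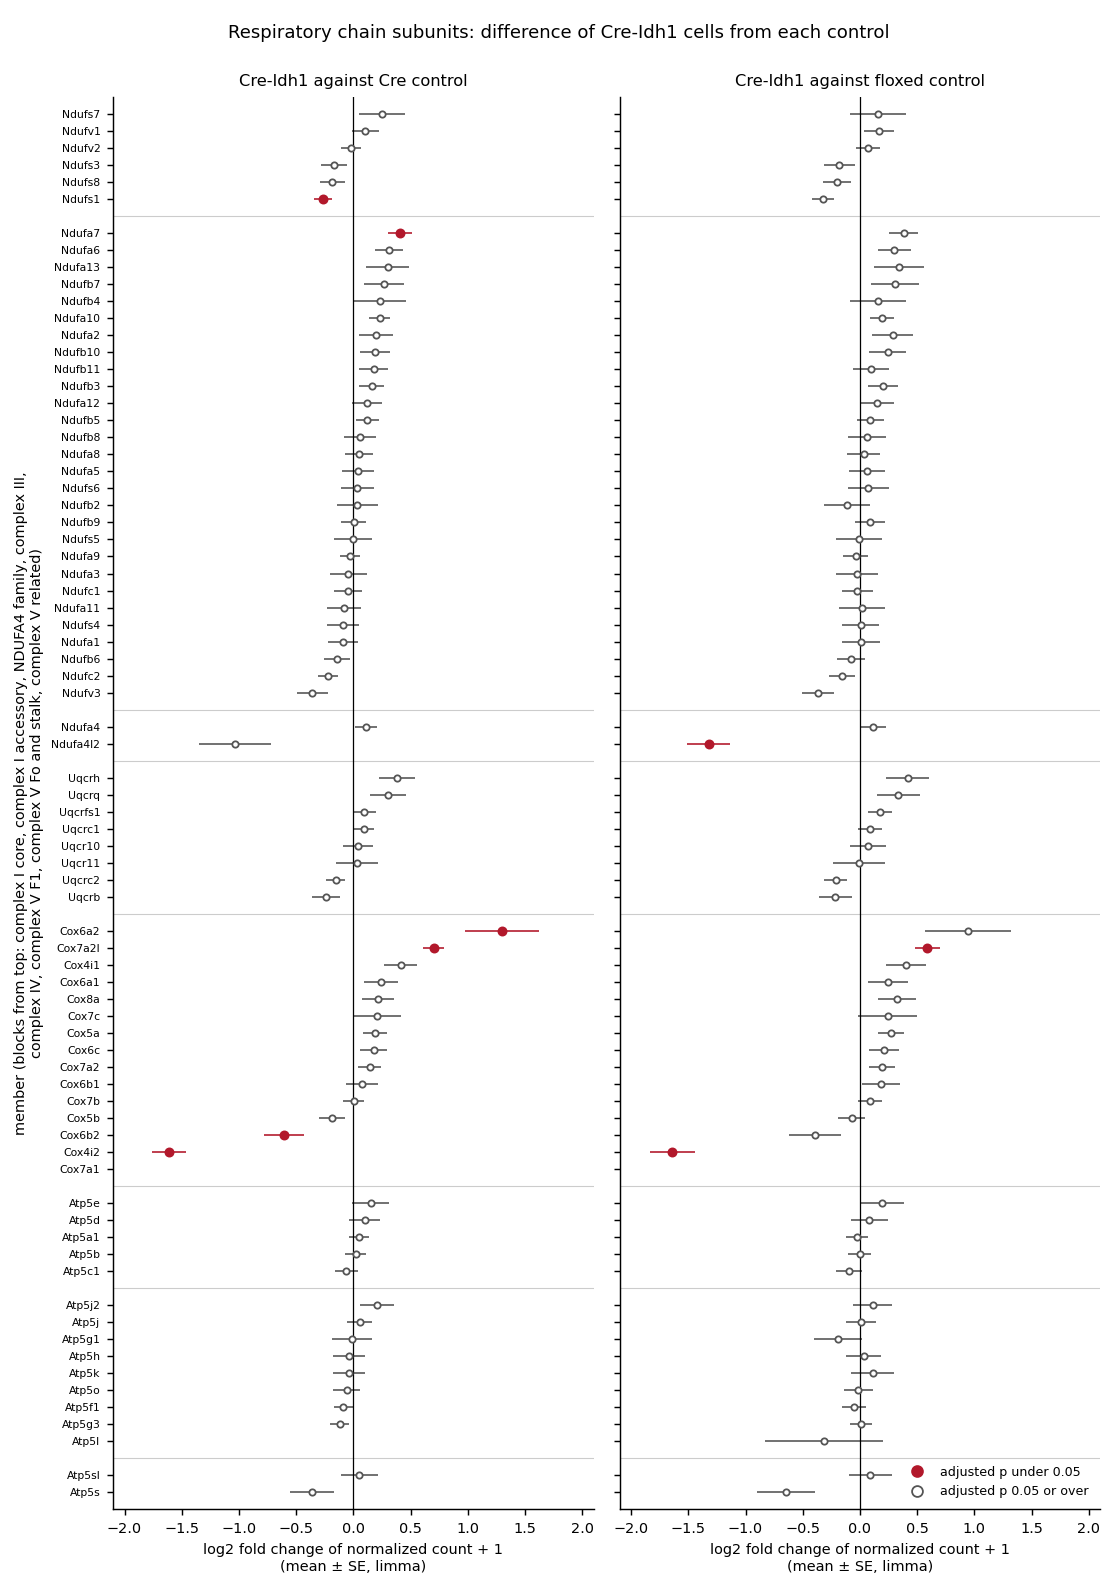
The log2 fold change of the subunit genes shown (x axis, point, with a line for 1 SE) in Cre-Idh1 cells against Cre control cells (left) and against floxed control cells (right), in blocks by role and, within a block, in the order of the left panel. Most points lie within 0.25 of 0, and the filled points, which passed at an adjusted p under 0.05, are 6 on the left and 3 on the right. Genes below the filter have no point.

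Complex IV, cytochrome c oxidase, held the largest differences. Of its 14 genes tested against Cre control cells, 2 rose and 2 fell (28.6%), where 19.2% of all genes tested passed. Against floxed control cells 1 rose and 1 fell (14.3%), where 14.4% of all genes tested passed. For the complex as a whole the median log2 fold change was 0.18 against Cre control cells and 0.23 against floxed control cells, and 0.06 and 0.11 without Cre-Idh1 replicate 3. Cox4i2 encodes the isoform of the regulatory subunit COX4 that is known from lung and from cells at low oxygen. Its normalized counts were 208, 224 and 290.0 in the Cre-Idh1 libraries, against 748, 775 and 666 in the Cre control libraries and 847 and 654 in the floxed control libraries. Every Cre-Idh1 library lay below every control library, by more than the spread within any group. Cox4i2 fell to 0.328 times the Cre control level (log2 fold change -1.61 ± 0.15 SE, adjusted p = 0.000354) and to 0.321 times the floxed control level (-1.64 ± 0.20, adjusted p = 0.00386). The other settings tried include a looser threshold of 0.1, which any call at 0.05 must pass. Cox4i2 passed under all 18 other settings tried against Cre control cells and all 16 against floxed control cells. Its partner Cox4i1, the isoform made in nearly all tissues and the complex IV gene with the highest level, had 4960.3, 4820.2 and 7169 normalized counts in the Cre-Idh1 libraries, against 3887, 4263.5 and 4393 in the Cre control libraries and 4306 and 4090.5 in the floxed control libraries. All 3 Cre-Idh1 libraries were above the controls, but replicate 3 stood far above the others, and the differences of 0.41 ± 0.15 and 0.40 ± 0.18 did not pass (adjusted p = 0.0835 and 0.164). Without replicate 3 they were 0.23 (adjusted p = 0.0508) and 0.22 (0.0536). The authors' deposited table calls Cox4i1 higher against Cre control cells (adjusted p = 0.0218) and against floxed control cells (adjusted p = 0.0441).

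Cox7a2l encodes a protein related to subunit COX7A that is known to join complexes III and IV into supercomplexes, and C57BL/6 mice are known to carry a shortened form of it. Its normalized counts were 1408, 1479.6 and 1559 in the Cre-Idh1 libraries, against 893, 969.6 and 868 in the Cre control libraries and 985 and 983 in the floxed control libraries. The lowest Cre-Idh1 library was well above the highest control library. It rose by 0.70 ± 0.09 on the log2 scale against Cre control cells (adjusted p = 0.0016) and by 0.59 ± 0.11 against floxed control cells (adjusted p = 0.0136). The first call held under all 18 other settings, among them the looser threshold of 0.1. The second was lost without floxed control replicate 1 (0.59, adjusted p = 0.116) or replicate 2 (0.59, adjusted p = 0.162), with the same size of difference. Cox7a2, the general isoform of COX7A, had 1725, 1679.6 and 1916 normalized counts in Cre-Idh1 libraries, against 1448, 1711 and 1662 in Cre control libraries and 1641 and 1464 in floxed control libraries. These overlapped with the Cre control libraries and differed by 0.14 ± 0.10 and 0.19 ± 0.11 (adjusted p = 0.346 and 0.289), or by 0.09 and 0.14 without Cre-Idh1 replicate 3. Cox7a1, the heart and skeletal muscle isoform, had 2.0 to 10.5 normalized counts in all libraries and was below the filter.

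Cox6a2, the heart and skeletal muscle isoform of subunit COX6A, was low in these cells but higher in Cre-Idh1 libraries. It had 100.3, 105 and 190.1 normalized counts in the Cre-Idh1 libraries, against 36.3, 49.4 and 72.4 in the Cre control libraries and 47.8 and 88.5 in the floxed control libraries. The groups did not overlap, although the highest control library came near the lowest Cre-Idh1 library. It rose by 1.30 ± 0.33 against Cre control cells (adjusted p = 0.0255), a call that was lost without Cre control replicate 1 (1.06, adjusted p = 0.0907) or replicate 2 (1.28, adjusted p = 0.0765) and with embryo sex as a covariate (1.22, adjusted p = 0.0613). By Xist and Y-linked genes, 1 of the 3 Cre-Idh1 libraries, 2 of the 3 Cre control libraries and 0 of the 2 floxed control libraries were female. Without Cre-Idh1 replicate 3, its highest library, the difference was 1.003 (adjusted p = 0.0423). Set against floxed control cells, it differed by 0.94 ± 0.38, which did not pass (adjusted p = 0.135). Of 14 skeletal muscle markers listed, 7 were tested against Cre control cells, where 19.2% of all genes tested passed. Acta1, skeletal muscle actin, rose by 1.96 ± 0.20 on the log2 scale (adjusted p = 0.000587). Tnnt3, fast skeletal troponin T, fell by 2.73 ± 0.14 (adjusted p = 4.12e-05). The summed level of the markers was 503 to 646 normalized counts in Cre-Idh1 libraries, against 1609 to 1674.5 in Cre control libraries and 1984 to 2311 in floxed control libraries, most of it Tnnt3. Without Tnnt3 it was 312 to 447 in Cre-Idh1 libraries, against 187 to 232 in Cre control libraries and 174 to 721 in floxed control libraries. The defining marker Ckm, muscle creatine kinase, had 3.92 to 27.9 normalized counts in Cre-Idh1 libraries, against 1.04 to 5.49 in Cre control libraries and 0 to 56.6 in floxed control libraries. The part of muscle RNA in the Cox6a2 result was not tested. In bulk libraries such as these, fewer cells of a type and less RNA per cell cannot be told apart. Its partner Cox6a1, the isoform made in most tissues, had 2339.6, 2147 and 3217 normalized counts in Cre-Idh1 libraries, against 1967, 2168 and 2298.5 in Cre control libraries and 2113 and 2151 in floxed control libraries. The groups overlapped and the differences were 0.24 ± 0.15 and 0.25 ± 0.17 (adjusted p = 0.284 and 0.365). They were 0.07 and 0.07 without Cre-Idh1 replicate 3.

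Cox6b2, known as the testis isoform of subunit COX6B, had 132, 104 and 149.8 normalized counts in the Cre-Idh1 libraries, against 198, 206 and 180.1 in the Cre control libraries and 184.5 and 152 in the floxed control libraries. The Cre-Idh1 libraries lay below all controls, but the highest of them and the lowest floxed control library were close. It fell by 0.61 ± 0.18 on the log2 scale against Cre control cells (adjusted p = 0.0443). It no longer passed without Cre-Idh1 replicate 1 (adjusted p = 0.0711) or replicate 2 (-0.46, adjusted p = 0.109), without Cre control replicates 1, 2 or 3 (adjusted p = 0.125, 0.1496 and 0.109) and with embryo sex as a covariate (-0.61, adjusted p = 0.0903). The difference of -0.39 ± 0.23 against floxed control cells did not pass (adjusted p = 0.277). Cox6b1, the general isoform, had 2047, 1679 and 2452 normalized counts in Cre-Idh1 libraries, against 1770.2, 1963 and 2082 in Cre control libraries and 1919.5 and 1667 in floxed control libraries, which overlapped. The other complex IV genes tested (Cox5a, Cox5b, Cox6c, Cox7b, Cox7c and Cox8a) did not pass in either comparison. Their log2 fold changes ran from -0.19 for Cox5b to 0.22 for Cox8a against Cre control cells and from -0.07 for Cox5b to 0.33 for Cox8a against floxed control cells.

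**Figure D3:**
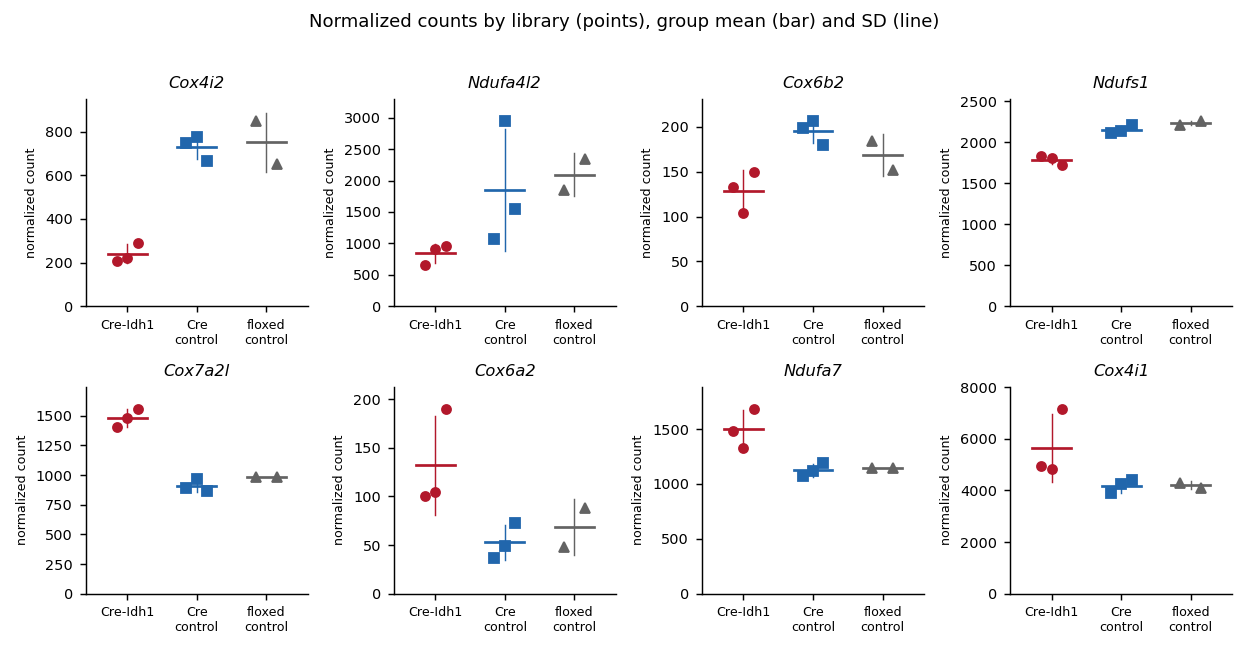
Normalized counts (y axis, from 0) of 8 subunit genes in each library (points) by group (x axis), with the group mean (bar) and SD (line; n = 3 Cre-Idh1, 3 Cre control and 2 floxed control libraries). The Cre-Idh1 points of Cox4i2 lie at 208 to 290.0, below all control points, and those of Cox7a2l at 1408 to 1559, above all of them, while Ndufa4l2 spreads widely within the Cre control group.

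The NDUFA4 family holds Ndufa4, first described as a complex I protein and now counted as a subunit of complex IV, and its relative Ndufa4l2, known as a target of the oxygen-sensitive factor HIF-1 that lowers mitochondrial oxygen use. Ndufa4l2 had 664, 905 and 954 normalized counts in the Cre-Idh1 libraries, against 1076, 2939 and 1551 in the Cre control libraries and 1849 and 2336 in the floxed control libraries. All Cre-Idh1 libraries were lower than all controls, but Cre control replicate 1 was close to them and Cre control replicate 2 far above. It fell to 0.400 times the floxed control level (-1.32 ± 0.19, adjusted p = 0.0061), a call lost without floxed control replicate 2 (-1.15, adjusted p = 0.0934). Against Cre control cells the difference of -1.03 ± 0.31 just missed the threshold (adjusted p = 0.0501). It was -0.64 without Cre control replicate 2 (adjusted p = 0.0932) and -1.36 without Cre control replicate 1 (adjusted p = 0.0253). It passed in 8 of the 11 settings other than leaving out a library, edgeR (-1.14, adjusted p = 0.0368) and embryo sex as a covariate (-1.31, adjusted p = 0.00556) among them, and over the 17 settings tested at the same threshold the adjusted p ran from 0.00556 to 0.118. Ndufa4 had 2038, 1901 and 2295 normalized counts in Cre-Idh1 libraries, against 1874, 1926 and 1960.1 in Cre control libraries and 1938 and 1893 in floxed control libraries, which overlapped, with differences of 0.11 ± 0.09 and 0.11 ± 0.11, or 0.04 and 0.04 without Cre-Idh1 replicate 3.

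Other hypoxia-regulated genes also varied among the control libraries. Of 12 hypoxia targets, Ndrg1 rose and Car9, a carbonic anhydrase, fell against Cre control cells. Over all genes tested, 19.2% passed in that comparison and 14.4% against floxed control cells. Against floxed control cells Ndrg1 rose, and Car9, Bnip3, a mitophagy receptor, and the oxygen sensors Egln1 and Egln3 fell. Car9 had 108, 278 and 211 normalized counts in Cre-Idh1 libraries, against 372, 1775 and 504 in Cre control libraries and 719 and 1025 in floxed control libraries, so it was highest in the same control library as Ndufa4l2. The list's median log2 fold change was -0.22 against Cre control cells and -0.43 against floxed control cells, and its summed level was 22092 to 25397 normalized counts in Cre-Idh1 libraries, against 18199 to 32004 in Cre control libraries and 23364 to 25514 in floxed control libraries.

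Cox4i2 and Ndufa4l2 are also known from pericytes and smooth muscle, so markers of those cells are given beside them. Of 8 such markers tested, Pdgfrb rose by 0.70 ± 0.10 and Acta2, smooth muscle actin, fell by 1.18 ± 0.13 on the log2 scale against Cre control cells. Against floxed control cells Cspg4 and Pdgfrb rose and Acta2 fell. Of all genes tested, 19.2% passed against Cre control cells and 14.4% against floxed control cells. The summed level of the markers was 95656 to 97548 normalized counts in Cre-Idh1 libraries, against 75134 to 91166 in Cre control libraries and 68322 to 73301 in floxed control libraries. Most of that is Cspg4, a proteoglycan that chondrocytes also make. Without Cspg4 the sums were 4512 to 5255 in Cre-Idh1 libraries, against 5507 to 6096 in Cre control libraries and 5638 to 5737 in floxed control libraries. The pericyte marker Rgs5 had 22.3 to 41.4 normalized counts in Cre-Idh1 libraries, against 29.7 to 42.1 in Cre control libraries and 23.4 to 56.1 in floxed control libraries. None of these markers was at 0 in all libraries, and their part in the Cox4i2 and Ndufa4l2 results was not tested.

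Complex I, the largest of the complexes, was nearly flat. Of its 35 genes, 1 rose and 1 fell against Cre control cells (5.71%), where 19.2% of all genes tested passed. Against floxed control cells 0 passed by limma or edgeR, where 14.4% of all genes tested passed by limma. In the latter comparison 1, Ndufs1, passed by DESeq2. There 3 reached an unadjusted p under 0.05, as did 4831 of all 15212 genes tested. The authors' deposited table calls Ndufs1 lower (adjusted p = 0.0039) and Ndufa7 higher (adjusted p = 0.0152) against floxed control cells. The median log2 fold changes were 0.04 and 0.06, and the range was -0.36 to 0.41 and -0.37 to 0.38. The medians were -0.09 and -0.08 without Cre-Idh1 replicate 3. Ndufa7, an accessory subunit of the arm that reaches into the matrix, had 1482.5, 1328 and 1686 normalized counts in the Cre-Idh1 libraries, against 1072, 1115 and 1189 in the Cre control libraries and 1142 and 1146 in the floxed control libraries. The groups did not overlap. It rose by 0.41 ± 0.11 against Cre control cells (adjusted p = 0.0316), while 0.38 ± 0.13 against floxed control cells did not pass (adjusted p = 0.0889). The call was lost without Cre-Idh1 replicate 1 (adjusted p = 0.0692), without Cre control replicates 1, 2 or 3 (adjusted p = 0.108, 0.106 and 0.084), with scaling by library size alone (adjusted p = 0.0659) and with embryo sex as a covariate (adjusted p = 0.0716). Without Cre-Idh1 replicate 3 the differences were 0.32 (adjusted p = 0.0262) and 0.29 (adjusted p = 0.0499).

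Ndufs1, the largest core subunit, which carries iron-sulfur clusters on the path of electrons from NADH, had 1828, 1814 and 1724 normalized counts in the Cre-Idh1 libraries, against 2111, 2134 and 2210.5 in the Cre control libraries and 2214 and 2255 in the floxed control libraries. The groups did not overlap and the spread within each was small. It fell by 0.27 ± 0.08 on the log2 scale against Cre control cells (adjusted p = 0.0465), and the difference of -0.32 ± 0.10 against floxed control cells did not pass (adjusted p = 0.0667). The first call lay near the threshold and was lost without Cre-Idh1 replicate 1 (adjusted p = 0.0972) or 2 (0.0836), without Cre control replicate 1 (0.0997), 2 (0.147) or 3 (0.189), without the filter (0.0524), with scaling by library size alone (0.0542) and with embryo sex as a covariate (0.117). Without Cre-Idh1 replicate 3 both differences passed (-0.24, adjusted p = 0.0262, and -0.30, adjusted p = 0.0230).

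The other 6 core subunits of complex I ran from -0.18 for Ndufs8 to 0.25 for Ndufs7 against Cre control cells. Among the accessory subunits, Ndufa6 (0.31 ± 0.12 and 0.30 ± 0.15) and Ndufa10 (0.23 ± 0.09 and 0.19 ± 0.11) were higher in every Cre-Idh1 library than in every control library without passing. Leaving out Cre-Idh1 replicate 3, Ndufa6 differed by 0.19 and 0.18 and Ndufa10 by 0.18 and 0.14. Ndufc2 was lower in every Cre-Idh1 library (-0.22 ± 0.09 and -0.16 ± 0.11) and did not pass either. Ndufv3, a small subunit beside the site where NADH is oxidized, had 737, 633 and 814 normalized counts in Cre-Idh1 libraries, against 789.9, 1034.5 and 979 in Cre control libraries and 966 and 907 in floxed control libraries. Its differences of -0.36 ± 0.14 and -0.37 ± 0.14 did not pass (adjusted p = 0.104 and 0.121), while without Cre-Idh1 replicate 3 they were -0.44 and -0.45 and both passed (adjusted p = 0.0397 and 0.0283).

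In complex III, 0 of 8 genes passed in either comparison by limma, edgeR or DESeq2. Over all genes tested, 19.2% and 14.4% passed by limma. An unadjusted p under 0.05 was reached by 1 of the 8 against Cre control cells, where 5074 of all 14851 genes did so. Against floxed control cells 0 of the 8 did, where 4831 of all 15212 genes did so. The median log2 fold changes were 0.07 and 0.08, and -0.04 and -0.03 without Cre-Idh1 replicate 3. The gene with the largest difference was Uqcrh, which encodes the acidic hinge protein that helps cytochrome c dock. It had 2283, 2296 and 3425 normalized counts in Cre-Idh1 libraries, against 1854, 2114 and 2076 in Cre control libraries and 2057 and 1869 in floxed control libraries. Every Cre-Idh1 library was above every control library, most of all replicate 3, and the differences were 0.38 ± 0.15 (adjusted p = 0.1198) and 0.42 ± 0.19 (adjusted p = 0.173). Without replicate 3 they were 0.19 and 0.22. The authors' deposited table calls Uqcrh higher against Cre control cells (adjusted p = 0.0493). Uqcrc2, a core protein of the matrix side and the complex III gene with the highest normalized count, had 2761, 3034 and 2803 in Cre-Idh1 libraries, against 2973, 3268 and 3341 in Cre control libraries and 3414 and 3227 in floxed control libraries. Its differences of -0.16 ± 0.09 and -0.21 ± 0.10 did not pass (adjusted p = 0.237 and 0.187).

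Complex V, which turns the proton gradient into ATP, had no gene called by limma, edgeR or DESeq2. Over all genes tested, 19.2% and 14.4% passed by limma. Of 15 genes tested against Cre control cells 0 had an unadjusted p under 0.05, where 5074 of all 14851 genes did. Of 16 tested against floxed control cells 1 did, where 4831 of all 15212 genes did. The medians were -0.01 and 0.00, and -0.05 and -0.05 without Cre-Idh1 replicate 3. Atp5b, the catalytic beta subunit and the most abundant of all the respiratory chain genes, had 19187, 20319 and 21068 normalized counts in Cre-Idh1 libraries, against 18418, 20234 and 21063 in Cre control libraries and 20340.5 and 20038 in floxed control libraries. The 3 groups overlapped almost fully, and its differences of 0.02 ± 0.09 and 0.00 ± 0.10 were within their standard errors. The 5 subunits of the F1 head ran from -0.06 for Atp5c1 to 0.15 for Atp5e against Cre control cells. Of the membrane and stalk subunits, Atp5g3, a gene of the c ring, had 4323.5, 4042 and 4513 normalized counts in Cre-Idh1 libraries, against 4396, 4825 and 4761.5 in Cre control libraries and 4314 and 4212 in floxed control libraries (-0.12 ± 0.08 and 0.01 ± 0.10). Atp5g1, another c-ring gene, had 128, 171 and 132 normalized counts in Cre-Idh1 libraries, against 133, 144 and 154 in Cre control libraries and 172 and 154 in floxed control libraries. Atp5s and Atp5sl match the naming rule but are not structural subunits, and Atp5s gave the only large difference of the block, -0.36 ± 0.19 and -0.64 ± 0.25, which did not pass (adjusted p = 0.223 and 0.131). It differed by -0.20 and -0.48 without Cre-Idh1 replicate 3. The authors' deposited table calls Atp5s lower against floxed control cells (-0.64, adjusted p = 0.0354). Atp5l had 3.30 to 11.7 normalized counts in all libraries and has 4 near-identical copies in the genome, with which reads may be shared. Near-identical copies also exist for Uqcrb, Atp5h, Atp5o, Cox7c, Ndufs3, Ndufs5 and Atp5g1, so their counts are uncertain.

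Within a pair of isoforms, the share of the alternative member was computed in each library from normalized counts per kilobase of transcript, as a description without a test. Cox4i2 made up 4.21% ± 0.29 of the COX4 pair in Cre-Idh1 libraries (SD, n = 3), against 15.2% ± 1.57 in Cre control libraries (SD, n = 3) and 15.4% ± 1.90 in floxed control libraries (SD, n = 2). Ndufa4l2 made up 20.9% ± 3.11 of its pair with Ndufa4 in Cre-Idh1 libraries, against 37.1% ± 11.6 in Cre control libraries and 41.5% ± 4.41 in floxed control libraries. For Cox6b2 the share was 7.67% ± 0.21 in Cre-Idh1 libraries, against 11.8% ± 1.36 in Cre control libraries and 11.1% ± 0.38 in floxed control libraries. These 3 isoforms took a lower share in every Cre-Idh1 library than in any control library. Cox6a2 went the other way, with 4.05% ± 0.63 of the COX6A pair in Cre-Idh1 libraries, against 1.99% ± 0.54 in Cre control libraries and 2.603% ± 1.04 in floxed control libraries. Cox7a2l took 33.9% ± 1.01 of its sum with Cox7a2 in Cre-Idh1 libraries, against 25.8% ± 1.59 in Cre control libraries and 28.0% ± 1.61 in floxed control libraries. The shares of Atp5g1 and Cox7a1 overlapped between the groups. Atp5g1 took 3.87% ± 0.81 of its sum with Atp5g3 in Cre-Idh1, 3.56% ± 0.15 in Cre control and 4.38% ± 0.25 in floxed control libraries. Cox7a1, which was below the filter, took 0.545% ± 0.136, 0.375% ± 0.163 and 0.695% ± 0.701 of its sum with Cox7a2, in the same order. Cre-Idh1 replicate 3, which stood apart in level, had a share of 3.98% for Cox4i2, against 4.12% and 4.54% in replicates 1 and 2. For Ndufa4l2 it had 21.3%, against 17.5% and 23.7%, and for Cox6b2 7.51%, against 7.91% and 7.60%. For Cox7a2l it had 33.3%, against 33.3% and 35.0%. Its 4.73% for Cox6a2 was above the 3.47% and 3.94% of replicates 1 and 2. In all 8 libraries the general isoform remained the larger part of each pair.

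**Figure D4:**
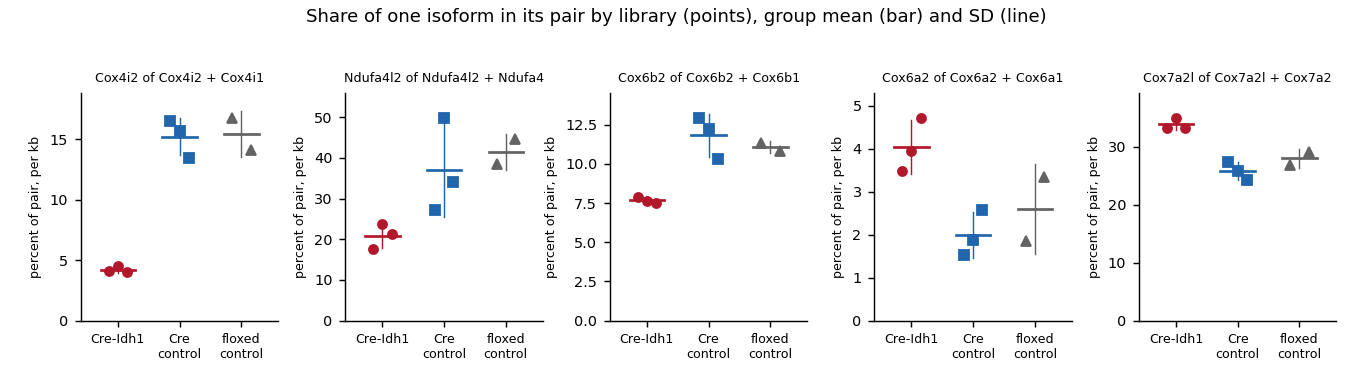
The share in percent of the first-named isoform in its pair, from normalized counts per kilobase (y axis, from 0), in each library (points) by group (x axis), with the group mean (bar) and SD (line). Cox4i2, Ndufa4l2 and Cox6b2 take a lower share in all Cre-Idh1 libraries (means of 4.21%, 20.9% and 7.67%) than in any control library, and Cox6a2 and Cox7a2l a higher one. Atp5g1 and Cox7a1, whose shares overlapped between the groups, are not shown.

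Between floxed control and Cre control cells, which differ in the Cre transgene and the floxed allele, 0 of 74 subunit genes passed by limma, edgeR or DESeq2, 0 had an unadjusted p under 0.05, and 0 passed in the authors' deposited table. The background in this comparison was 0.0134% of 14870 genes, or 2 genes, and 1133 of the 14870 had an unadjusted p under 0.05. The libraries did not overlap for 7 subunits (9.46%), against 24.8% of all genes. The median log2 fold change was -0.02 and 71 of the 74 subunits lay within 0.25 of 0. Cox4i2 differed by 0.03 ± 0.12, Cox7a2l by 0.11 ± 0.08 and Ndufa4l2 by 0.29 ± 0.35.

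Across all 8 libraries the levels were narrow for most of the genes. Of the 74 genes with at least 10 normalized counts in every library, the highest library was a median of 1.39 times the lowest, and for 47 it was under 1.5 times. It was over 2 times for 4 genes, Atp5s, Cox4i2, Ndufa4l2 and Cox6a2. Per kilobase of transcript and among the 68 genes without a near-identical copy, the highest mean levels were those of Atp5b (10482 normalized counts per kilobase) and Atp5a1 (6714) in complex V, Uqcrq (6627) in complex III, Cox4i1 (6357) in complex IV and Atp5g3 (6195) in complex V. In complex I the highest was Ndufa2 (2731). At the low end stood Cox7a1 (13.0), Ndufb4 (89.96), Atp5s (126.5) and Cox6a2 (126.8).

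Of the 7 genes called in either comparison, 3 have a promoter in the table used here, and these are shown with 2 others to let the motifs be seen in place. The sequences are from RefSeq on GRCm38.p6 and run from 250 bases before to 50 after the annotated start. Where a gene has more than 1 start, as Ndufa7 with 2, only the first listed was searched. Matches of 4 motifs are in capitals, on either strand: GCGCA, any base and GCGC for NRF1, CCGGAAG for ETS factors such as GABP, AAGATGG for YY1 and GGGCGGG for SP1. NRF1 and GABP are known as regulators of many respiratory chain genes. Cox7a2l and Ndufa7, which rose, and Cox6b2, which fell, are followed by Cox6a1 and Uqcrc1, which passed in neither comparison and were picked because each holds 2 NRF1 matches. They do not stand for the other subunit genes: 3 of the 63 with a promoter held 2 or more NRF1 matches and 21 held no match of any of the 4 motifs.
Cox7a2l, chr17:83514284-83514583, minus strand: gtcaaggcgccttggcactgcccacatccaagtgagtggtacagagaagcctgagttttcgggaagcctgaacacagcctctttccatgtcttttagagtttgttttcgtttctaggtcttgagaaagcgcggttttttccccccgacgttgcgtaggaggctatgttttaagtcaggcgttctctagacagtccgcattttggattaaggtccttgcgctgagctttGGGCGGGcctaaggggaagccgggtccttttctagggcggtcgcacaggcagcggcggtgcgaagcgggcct
Ndufa7, chr17:33824322-33824621, plus strand: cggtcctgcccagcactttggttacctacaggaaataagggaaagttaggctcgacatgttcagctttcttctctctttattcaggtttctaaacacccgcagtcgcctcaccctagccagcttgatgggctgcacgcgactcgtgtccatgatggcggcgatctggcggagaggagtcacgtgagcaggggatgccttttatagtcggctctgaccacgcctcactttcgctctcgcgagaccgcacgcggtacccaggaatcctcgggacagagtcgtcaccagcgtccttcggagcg
Cox6b2, chr7:4753045-4753344, minus strand: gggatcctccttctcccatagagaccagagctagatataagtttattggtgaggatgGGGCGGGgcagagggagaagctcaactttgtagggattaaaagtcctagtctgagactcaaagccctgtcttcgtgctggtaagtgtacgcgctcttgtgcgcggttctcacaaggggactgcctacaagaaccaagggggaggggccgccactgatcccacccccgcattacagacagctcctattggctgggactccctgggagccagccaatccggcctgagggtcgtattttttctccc
Cox6a1, chr5:115348909-115349208, minus strand: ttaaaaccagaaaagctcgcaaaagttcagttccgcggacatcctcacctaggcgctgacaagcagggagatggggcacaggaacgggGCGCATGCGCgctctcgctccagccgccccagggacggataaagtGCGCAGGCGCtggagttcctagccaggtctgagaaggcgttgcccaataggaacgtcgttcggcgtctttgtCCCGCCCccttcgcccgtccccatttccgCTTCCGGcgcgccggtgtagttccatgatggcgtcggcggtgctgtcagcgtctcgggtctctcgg
Uqcrc1, chr9:108936398-108936697, plus strand: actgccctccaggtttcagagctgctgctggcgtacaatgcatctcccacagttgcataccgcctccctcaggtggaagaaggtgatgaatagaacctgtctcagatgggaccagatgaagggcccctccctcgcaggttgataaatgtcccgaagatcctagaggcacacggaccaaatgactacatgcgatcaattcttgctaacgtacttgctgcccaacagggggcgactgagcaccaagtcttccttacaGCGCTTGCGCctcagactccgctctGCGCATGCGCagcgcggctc
In these windows Cox7a2l and Cox6b2 held 1 SP1 match each and Ndufa7 held 0 matches of the 4 motifs. Cox6a1 held 2 NRF1 matches, 1 ETS match and 1 SP1 match, and Uqcrc1 held 2 NRF1 matches. A promoter was in the table for 63 of the 76 genes. The NRF1 motif was in 13 of them (20.6%), against 9.57% of the promoters of 11578 listed coding genes, and the YY1 motif in 11 (17.5%), against 6.8%. The ETS motif was in 13 (20.6%), against 16.5%, and the SP1 motif in 20 (31.7%), against 46.4%. These are matches of letters and not sites, and no test was made.

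Other genes of oxidative phosphorylation, from lists that follow the same complexes, showed few differences. The calls in these lists, here and in the next paragraph, stand beside 19.2% of all genes tested against Cre control cells. Against floxed control cells that share was 14.4%. An unadjusted p under 0.05 was reached by 5074 of 14851 genes in the first comparison and 4831 of 15212 in the second. Complex II, succinate dehydrogenase, had 0 of 4 genes called in either comparison by limma, edgeR or DESeq2 and 0 with an unadjusted p under 0.05, and its sum stood at 9785 to 10453 normalized counts in Cre-Idh1 libraries, against 10214 to 10490 in Cre control libraries and 10484 to 10513 in floxed control libraries. Of 14 complex I assembly factors, Ecsit (-0.51 ± 0.15, adjusted p = 0.048) and Tmem126b (-0.52 ± 0.13, adjusted p = 0.029) fell against Cre control cells, and Acad9 (-0.45 ± 0.12, adjusted p = 0.044) and Tmem126b (-0.60 ± 0.14, adjusted p = 0.033) against floxed control cells. Their summed level was 6712 to 6789 normalized counts in Cre-Idh1 libraries, against 7274 to 7814.5 in Cre control libraries and 7900 to 8000.5 in floxed control libraries, with no overlap. The list's median log2 fold change was -0.13 and -0.30. Of 18 complex IV assembly factors, 5 of complex III and 3 of complex V, 0 were called in either comparison by limma, edgeR or DESeq2. An unadjusted p under 0.05 was reached by 1, 1 and 2 of them against Cre control cells and by 1 in each of the 3 lists against floxed control cells. Among proteins outside the naming rule, Atpif1, the inhibitor of ATP synthase (-0.46 ± 0.12), and Higd1a, a hypoxia-induced partner of complex IV (-0.64 ± 0.13), fell against floxed control cells. In that list of 8 genes, 0 were called against Cre control cells by limma and 2 by edgeR and by DESeq2, and 2 had an unadjusted p under 0.05.

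Of 13 subunits encoded by mitochondrial DNA, 7 were listed and tested. Of these, mt-Nd6 (1.32 ± 0.15) and mt-Co1 (0.49 ± 0.14) rose and mt-Cytb fell by 0.39 ± 0.10 on the log2 scale against Cre control cells. mt-Nd6 also rose against floxed control cells (0.89 ± 0.17). There mt-Co1 (0.47 ± 0.16, adjusted p = 0.101) and mt-Cytb (-0.41 ± 0.12, adjusted p = 0.0615) did not pass. Normalized counts of mt-Co1 were 104370, 99871 and 77212 in Cre-Idh1 libraries. The Cre control libraries held 62813 to 68155 and the floxed control libraries 64403 and 70227. Cre-Idh1 replicate 3 was also lowest of its group for mt-Nd1, mt-Nd2, mt-Nd5 and mt-Cytb, and highest for mt-Nd4 and mt-Nd6. mt-Nd6, the one complex I subunit encoded on the other strand of mitochondrial DNA, had 13852, 16505 and 16802 normalized counts in Cre-Idh1 libraries, against 7874, 5671 and 5479 in Cre control libraries and 7101 and 10109 in floxed control libraries. The groups did not overlap. The sources used here do not state the strand setting of the counting, so reads of mt-Nd6 and of the opposite strand cannot be told apart. Of 12 regulators of mitochondrial biogenesis, Tfam, which packs mitochondrial DNA, fell by 0.37 ± 0.11 on the log2 scale against Cre control cells (adjusted p = 0.043). It had 1226, 1136 and 1026 normalized counts in Cre-Idh1 libraries, against 1446, 1334 and 1604 in Cre control libraries and 1520.2 and 1424 in floxed control libraries. Against floxed control cells 0 of the 12 were called by limma or edgeR and 1 by DESeq2, and 2 had an unadjusted p under 0.05. Nrf1, whose motif was searched above, differed by 0.20 ± 0.10 and 0.29 ± 0.12 and Gabpa by -0.06 ± 0.13 and -0.18 ± 0.16, and neither passed. Of 3 carriers of ATP and phosphate 0 were called in either comparison by limma, edgeR or DESeq2, and 0 had an unadjusted p under 0.05.

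Calls among markers of further cell types are given beside the share over all genes tested. That share was 19.2% against Cre control cells, with 9.8% higher. Against floxed control cells it was 14.4%, with 7.47% higher. An unadjusted p under 0.05 was reached by 5074 of 14851 genes in the first comparison and 4831 of 15212 in the second. Of 11 macrophage markers tested against Cre control cells 4 rose, and of 12 against floxed control cells 6 rose, with summed levels of 4611 to 11407 normalized counts in Cre-Idh1 libraries, against 3283 to 6093 in Cre control libraries and 3519 to 4674 in floxed control libraries. Of 7 endothelial markers 2 and 1 rose, with sums of 342 to 925 in Cre-Idh1 libraries, against 200.2 to 294.5 in Cre control libraries and 217 to 323 in floxed control libraries. Fabp4, a fatty acid carrier of adipocytes that endothelium and macrophages also make, rose against both controls, and Cidea fell against Cre control cells, among 3 adipocyte markers. Of 7 erythroid markers 0 were called in either comparison by limma, edgeR or DESeq2 and 0 had an unadjusted p under 0.05, and of 8 chondrocyte markers Matn1 fell against Cre control cells. The part of these cells in the subunit results was not tested.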

How the data were processed

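RNA of primary sternal chondrocytes from embryonic day 18.5 mice was sequenced in 8 libraries: Col2a1Cre;Idh1 fl/+ (n = 3), Col2a1Cre (n = 3) and Idh1 fl/+ (n = 2). Chondrocytes were freed from sterna by enzyme digestion, and the library kit was a stranded KAPA mRNA kit, per the labels' protocols. The submitters' processing notes name Trim Galore, cutadapt, STAR, HTSeq and DESeq2. No versions, genome build or strand setting are stated there. The authors deposited 3 pairwise tables, per the file headers. The signal used is the authors' deposited normalized value per gene and library, a read count divided by a size factor. All of these values (100%) came out as whole reads within 0.001 reads. The log2 fold change, p-value and adjusted p-value in the deposited tables are the authors' own, as is the deposited score, a Wald statistic, which was not used.

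Within each pair of groups, log2(normalized count + 1) was tested with limma 3.58.1 (mean-variance trend, two-sided) in R 4.3.3, over genes with at least 10 normalized counts in enough libraries to fill the smaller group. P-values were adjusted over all genes tested by Benjamini-Hochberg, with a threshold of 0.05. Fold changes understate those of genes with few counts. Depth was 31860422 to 44988540 reads per library. edgeR 4.0.16 and DESeq2 1.42.0 were run on the recovered reads as alternatives, beside other pseudocounts, filters, scalings and embryo sex, read from Xist and Y-linked genes, as a covariate. limma was tested on simulated data first. Replicate numbers follow the order of the records and pair no samples, and no batch is given. Transcript lengths and near-identical copies (at least 97% identity over 50% of a transcript) come from GENCODE M21, and promoters from RefSeq on GRCm38.p6. The text names genes called in a comparison with Cre-Idh1, isoform pairs and the gene with the highest value of each complex, and other genes from lists by complex, pathway or cell type. Some items are not reported here. The genes and lists were chosen with earlier results of these data known.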

Additional observations from a re-analysis of the deposited data

How the results depend on the processing

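No paired analysis was possible because the labels give no replicate numbers that the groups share. Against Cre control cells, where 6 subunit genes were called, leaving out 1 library gave 2 to 8 calls: 3 without Cre-Idh1 replicate 1, 3 without Cre control replicate 1, 2 without Cre control replicate 2 and 3 without Cre control replicate 3. With embryo sex as a covariate 3 were called, Cox4i2, Cox7a2l and Ndufa4l2. Against floxed control cells, where 3 were called, leaving out 1 library gave 1 to 6 calls, with 6 without Cre-Idh1 replicate 3 and 1 without floxed control replicate 2. There 5 were called with all 8 libraries in one fit and 5 at an adjusted p under 0.1. The authors' deposited table called 7 there, adding Ndufa7, Ndufs1, Cox4i1 and Atp5s. The authors' deposited table called 9 against Cre control cells, adding Ndufa4l2, Cox4i1 and Uqcrh. Cox4i2 against both controls and Cox7a2l against Cre control cells passed under every setting tried. The looser threshold of 0.1, which these calls must pass, is among those settings. Between the controls, where nothing passed, 5 differences changed sign. With scaling by library size alone Cox4i2 was at -0.033, Ndufa7 at -0.039 and Ndufs1 at -0.0092. Leaving out 1 library gave -0.16 to 0.22 for Cox4i2, -0.082 to 0.79 for Cox6a2, -0.039 to 0.69 for Ndufa4l2 and -0.0094 to 0.066 for Ndufa7. The cause was not tested for any of these. The median log2 fold change of the subunits moved by less than the spread between replicates under every setting. Against Cre control cells that spread was 0.14, which includes Cre-Idh1 replicate 3 and is larger than the median of 0.04. Without that library the median changed sign to -0.05, so this yardstick cannot show that the median is stable. The median standard error of a subunit's log2 fold change was 0.13 against Cre control and 0.15 against floxed control cells, which limits how small a difference can be called. Leaving out a floxed control library leaves 1, which is assumed to vary like the Cre-Idh1 libraries.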
